A study of Mus musculus with 32 samples.

Results

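Hox genes were followed in the lungs of newborn mice kept in 21% O2 or in 85% O2 and treated with an oligonucleotide against microRNA-34a. A probe was counted as a Hox probe where the array named its gene with a lower-case Hox symbol of cluster a, b, c or d and a number, which gave 39 genes on 44 probes. Probes were kept when some group had all 4 of its arrays well above background for them. That left 24 genes on 26 probes, out of 27107 gene names and identifiers on 39159 kept probes. All probe positions are in the mouse build mm9.

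The animals were wild-type C57Bl/6J pups of both sexes, randomized after birth with litter size held equal. They breathed 21% O2 (normoxia) or 85% O2 (hyperoxia) from the first day of life and received a scrambled antimiR (SCR) or an antimiR directed at microRNA-34a (A34a). An antimiR is a locked nucleic acid oligonucleotide that pairs with a microRNA and blocks it, so every animal, controls included, carried an injected oligonucleotide, and no uninjected group was measured here. Lungs were taken at post-natal day (P)5 or P14, perfused free of blood and homogenized whole, and each of the 32 mice gave 1 one-colour Agilent array. The 8 groups of 4 mice were thus 21% O2 with SCR, 21% O2 with A34a, 85% O2 with SCR and 85% O2 with A34a, at P5 and at P14. Hyperoxia of this kind arrests the formation of alveoli and is used as a model of bronchopulmonary dysplasia, the chronic lung disease of preterm infants.

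Hox genes encode homeodomain transcription factors that set the position of cells along the body axis of the embryo. In mammals they lie in 4 clusters, and the order of the genes on the chromosome follows the order in which they are used from head to tail. Paralog groups with low numbers (Hox1 to Hox4 here) are called anterior and those with high numbers posterior. In the lung they are used mainly by the mesenchyme, where Hoxa5 and its paralog Hoxb5 act in airway branching and in the formation of the alveolar wall.

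The sequences behind the main readings are shown first. Retinoic acid receptors, Hox-Pbx dimers, stress-responsive bZIP factors and NF-Y each bind a short DNA motif, and 4 such motifs were searched on both strands: AGGTCA (a binding unit of retinoic acid receptors), TGATNNAT (a Hox-Pbx site), TGACNNNGC (the core of the antioxidant response element) and ATTGG (an inverted CCAAT box). The windows below are the 250 bases before the gene start from RefSeq in the build GRCm38.p6, for the genes with strong lower (Hoxa2, Hoxa5) and higher (Hoxa6) readings in 85% O2, all on the minus strand of chromosome 6. Capitals mark the matches.
Hoxa2 (chr6:52164832-52165081): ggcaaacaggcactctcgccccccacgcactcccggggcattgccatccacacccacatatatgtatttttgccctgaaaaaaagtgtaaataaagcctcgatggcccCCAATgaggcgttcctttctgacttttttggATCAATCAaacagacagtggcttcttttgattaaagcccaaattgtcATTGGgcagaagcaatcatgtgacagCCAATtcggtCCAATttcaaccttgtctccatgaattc
Hoxa5 (chr6:52204588-52204837): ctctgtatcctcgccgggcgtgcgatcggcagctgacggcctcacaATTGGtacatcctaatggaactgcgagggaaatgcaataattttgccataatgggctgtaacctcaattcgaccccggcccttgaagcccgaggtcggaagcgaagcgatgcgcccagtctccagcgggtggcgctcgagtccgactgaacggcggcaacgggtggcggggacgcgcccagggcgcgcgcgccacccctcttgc
Hoxa6 (chr6:52208673-52208922): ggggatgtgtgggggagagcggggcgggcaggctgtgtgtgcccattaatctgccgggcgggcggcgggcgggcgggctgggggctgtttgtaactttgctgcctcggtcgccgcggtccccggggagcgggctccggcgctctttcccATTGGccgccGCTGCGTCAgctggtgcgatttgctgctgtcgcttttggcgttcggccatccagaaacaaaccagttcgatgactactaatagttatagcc

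The promoter table held 24 windows for 22 of the Hox genes. ATTGG stood in 14 of the 24 windows, against 33.8% of all 32851 windows of the same length. AGGTCA stood in 6 (Hoxb4, Hoxc4, Hoxd3, Hoxd4, Hoxd8 and Hoxd10), against 14% of all windows. TGATNNAT stood in 4 (Hoxa2, Hoxb1, Hoxb8 and Hoxd11), against 7.68%, and TGACNNNGC in Hoxa6 alone, against 10.2%. A match is a run of letters and not a shown binding site.

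What the array reads of a Hox transcript is a stretch of 60 bases. In the Hoxa6 probe the capitals mark the codons of the hexapeptide core, through which Hox proteins touch their partner Pbx. Cross-hybridization of the probes to other Hox transcripts was not tested.
Hoxa6 probe (mm9 chr6:52158194-52158253, minus strand): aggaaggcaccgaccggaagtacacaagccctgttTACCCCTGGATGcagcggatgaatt
The target of the antimiR is the mature microRNA-34a (GRCm38.p6 chr4:150068473-150068494), printed with its seed, bases 2 to 8, in capitals.
miR-34a-5p: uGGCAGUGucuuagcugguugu
The 7 letters that pair with this seed, CACTGCC, stood in 0 of the 44 Hox probes and in 0.449% of all 55681 mouse probes. The probes cover only part of each transcript, so this says nothing about the rest of it.

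Levels are given throughout as the log2 intensity of a probe minus the 75th percentile of its array, so a level of 0 is that percentile, and levels of different probes cannot be compared. A difference is a difference of 2 such group means ± its standard error (SE), with 4 mice a group. Differences were tested with limma and adjusted with the Benjamini-Hochberg method over all probes tested, and "called" means an adjusted p under 0.05.

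The layout of the arrays limits what the comparisons can separate. The 32 arrays lay on 4 slides, each holding a single age and a single oxygen level, so oxygen and slide, and age and slide, cannot be told apart. Each slide held SCR in its first row and A34a in its second, so the antimiR cannot be told apart from the row. The slide with the P14 mice kept in 21% O2 stood apart. Between 39007 and 40774 probes were well above background on its arrays, against 33606 to 38716 on the other 24, and between 24 and 30 Hox probes, against 17 to 24. On that slide 367 probes (0.659% of 55681) were above background on all 8 arrays and on none of the other 24, and Hoxb9 and Hoxd11 were among them. The other slides had 6, 0 and 1 such probes. The 8 adipocyte marker genes (Adipoq and others) had a mean level of -1.68 to 2.24 on that slide and of -6.00 to -2.54 elsewhere. Of the 8, 7 were above background on all arrays of that slide. The mean level of the skeletal muscle list was 0.99 on replicate 4 of the P5 21% O2 SCR mice. It was between -4.03 and -1.59 on every other array. Lung markers were present throughout, with all 10 alveolar epithelial and all 10 endothelial genes above background on every array.

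The clusters were read unevenly along their length. The 4 clusters span 103.648 kb on chromosome 6 (Hoxa, probes from 52105392 to 52209039), 170.657 kb on chromosome 11 (Hoxb, 96057854 to 96228510), 108.215 kb on chromosome 15 (Hoxc, 102759058 to 102867272) and 93.812 kb on chromosome 2 (Hoxd, 74509248 to 74603059). Of the paralog groups 1 to 4, 9 of 12 genes had a kept probe and 7 were above background on every array. Of groups 5 to 8, 9 of 11 were kept and 7 were on every array, and of groups 9 to 13, 6 of 16 were kept and only Hoxa9 was on every array. The 15 genes seen on all 32 arrays were 8 of the 11 Hoxa genes and 7 of the 10 Hoxb genes, with none of the 9 Hoxc or the 9 Hoxd genes. Array detection depends on the probe as well as on the transcript.

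**Figure D1:**
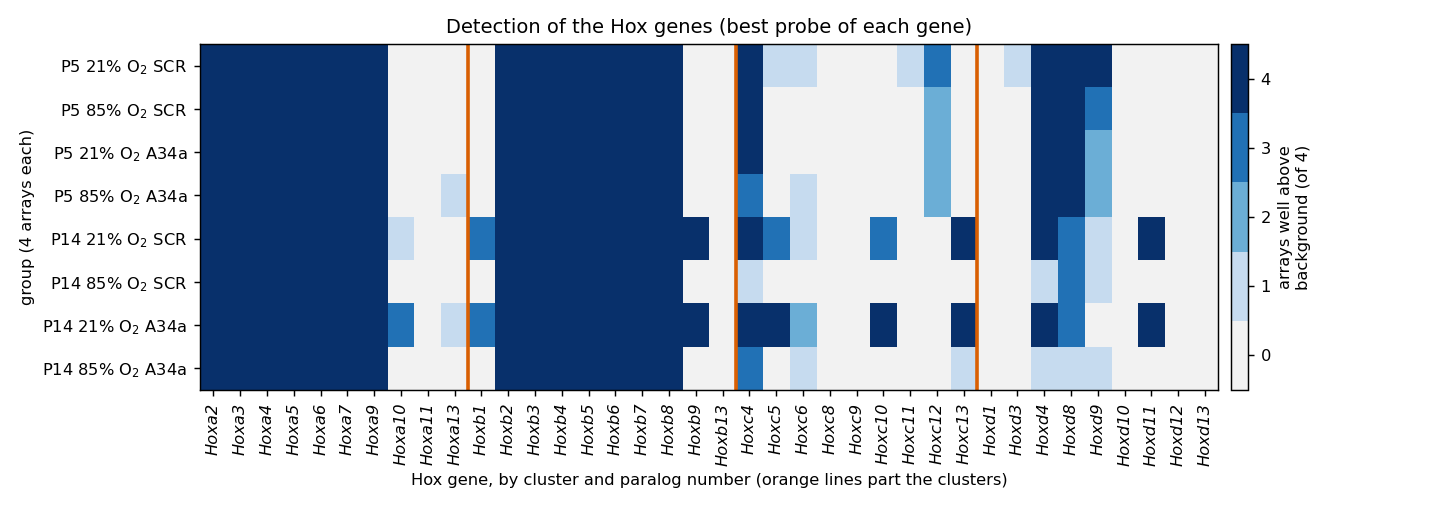
Number of arrays, of 4 a group, on which the Hox genes were well above background (best probe of a gene), with genes in columns by cluster and paralog number and the 8 groups in rows. The anterior and central Hoxa and Hoxb genes other than Hoxb1 fill every group. Hoxb1, Hoxb9, Hoxc5, Hoxc10, Hoxc13 and Hoxd11 appear chiefly in the P14 groups kept in 21% O2.

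The other 15 genes had no kept probe. Hoxa11, Hoxb13, Hoxc8, Hoxc9, Hoxd1, Hoxd10, Hoxd12 and Hoxd13 were above background on no array. Hoxa10 was above it on 4 arrays, Hoxa13 on 2, Hoxb1 on 6, Hoxc6 on 6, Hoxc11 on 1, Hoxc12 on 9 and Hoxd3 on 1. Hoxa11 and Hoxb1 were each read by 10 repeat spots an array. A reading that is not above background does not show that the transcript was absent.

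The first comparison asked how 85% O2 changed the Hox genes at P5 in SCR mice. Anterior and central Hoxa and Hoxb transcripts were lower in 85% O2, and no Hox probe was called higher. Of 21 Hox probes tested, 14 were called lower, where 43.6% of all probes tested were called and 23.4% were called lower. By gene (brightest probe), 12 of 19 were lower, made up of 6 of 9 in paralog groups 1 to 4, 4 of 8 in groups 5 to 8 and 2 of 2 in groups 9 to 13. Of the last 2, Hoxd9 entered the test only through the 21% O2 SCR mice. The median difference of the Hox probes was -0.42, against -0.03 over all probes. Among probes above background on every array of that age, 12 of 18 Hox probes were called lower, against 23.7% of all such probes.

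Hoxa2, which patterns the hindbrain and the second pharyngeal arch in the embryo, had the clearest separation at P5. Its level was 0.01, 0.18, 0.38 and 0.31 in 21% O2 and -0.65, -0.52, -0.56 and -0.56 in 85% O2. The groups did not overlap, and the difference was -0.79 ± 0.08 (adjusted p = 3.08e-06). Hoxb3, an anterior gene read by 2 probes, was lower on both. The first read -1.39, -1.18, -0.93 and -1.30 in 21% O2 and -1.94, -2.10, -2.15 and -1.97 in 85% O2, a difference of -0.84 ± 0.11 (adjusted p = 4.21e-05). The second Hoxb3 probe differed by -0.48 ± 0.10 (adjusted p = 0.00121).

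Hoxa5, the Hox gene best known in lung development, read 1.30, 1.54, 1.50 and 1.11 at P5 in 21% O2 and 0.82, 0.90, 0.84 and 0.85 in 85% O2. All 4 hyperoxic mice lay below all 4 normoxic mice, with a difference of -0.51 ± 0.10 (adjusted p = 0.000932). Its paralog Hoxb5 was lower by a similar amount, -0.38 ± 0.11 (adjusted p = 0.0108), but the groups overlapped. Hoxa4 (-0.42 ± 0.08), Hoxb2 (-0.36 ± 0.06), Hoxb4 (-0.33 ± 0.05), Hoxa3 (-0.32 ± 0.10) and Hoxb6 (-0.29 ± 0.11) were also lower, the last with an adjusted p of 0.0452. The Hoxb6 call was lost without replicate 2 or 3 of the 21% O2 mice or without replicate 1, 3 or 4 of the 85% O2 mice.

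Of the dimmer Hoxa9, Hoxd8 and Hoxd9 probes at P5, the brighter Hoxa9 probe kept its call under all 18 other settings, with differences of -0.87 to -0.29. The others were less secure. Hoxa9 was lower on both probes, by -0.75 ± 0.17 and -0.60 ± 0.22, Hoxd8 by -0.74 ± 0.23 (adjusted p = 0.0181) and Hoxd9 by -0.77 ± 0.26 (adjusted p = 0.0246). Hoxd9 was above background on all 4 arrays only in the 21% O2 SCR mice. It entered the test through that group, which favours a lower call in 85% O2. Replicate 4 of the 21% O2 SCR mice, the array with the high skeletal muscle list, was the highest of its group for Hoxd8 (-3.13, others -4.37 to -4.19) and for Hoxd9 (-4.14, others -5.48 to -4.84). Without it the difference was -0.45 for Hoxd8 (adjusted p = 0.0281) and -0.53 for Hoxd9, which was then not called (adjusted p = 0.0764). Hoxd9 was also lost without replicate 1 of the 21% O2 mice or replicate 1 or 4 of the 85% O2 mice, and Hoxd8 without replicate 3 of the 85% O2 mice. Both Hoxd calls were also lost with quantile normalization (-0.48 each) and in the deposited value table. With normexp the differences were -0.27 for Hoxd8, not called, and -0.26 for Hoxd9. The second Hoxa9 probe was lost without any of replicates 1 to 3 in 21% O2 or 2 to 4 in 85% O2. The other 7 Hox probes were not called at P5, among them Hoxa6 (0.00 ± 0.33), Hoxa7, Hoxb7 and Hoxb8. By the methods' t-test (Welch's test with Benjamini-Hochberg adjustment) 7 of 21 Hox probes were called in place of 14, where 10644 of all 35981 probes were called.

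**Figure D2:**
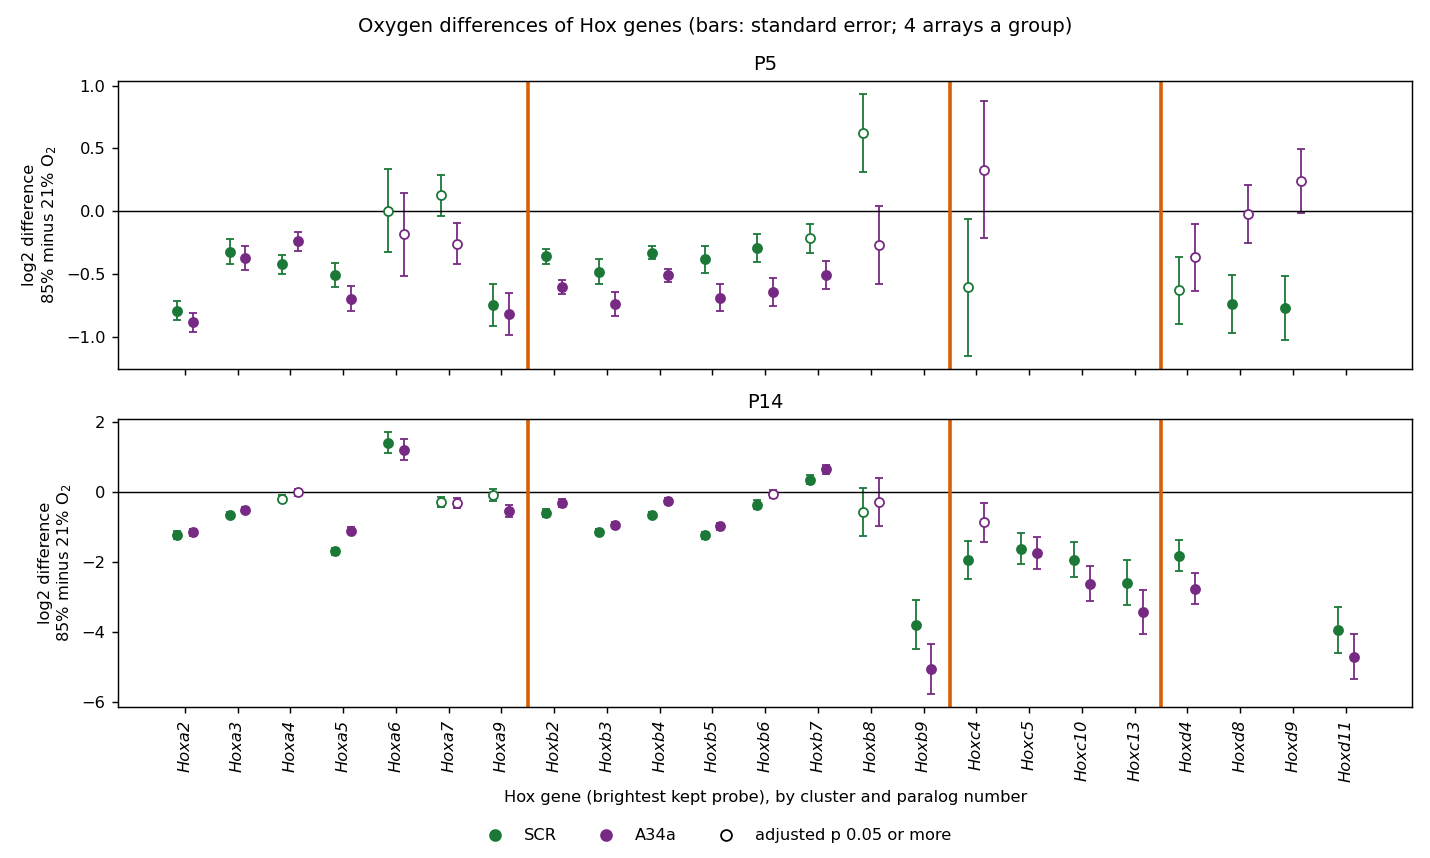
Difference in log2 level, 85% O2 minus 21% O2, with its standard error, for the brightest kept probe of the Hox genes in cluster order, at P5 (top) and P14 (bottom), in SCR (green) and A34a (purple) mice. Filled points are called (adjusted p under 0.05). Most Hoxa and Hoxb points lie below 0 in both treatments, and at P14 Hoxa6 and Hoxb7 lie above it.

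At P14 the same comparison in SCR mice gave larger differences. Hoxa5, Hoxb5, Hoxa2 and Hoxb3 were all lower by more than 1 log2 unit, while Hoxa6 and Hoxb7 were higher. Of 24 Hox probes tested, 18 were called lower and 2 higher, where 60.5% of all probes were called and 31.6% were called lower. The median Hox difference was -0.91, against -0.05 over all probes. Some of these probes entered the test only because they were above background in 21% O2, so the count is best read over the 16 Hox probes seen on every P14 array. Of these, 10 were called lower and 2 higher, where 27% of all such probes were called lower.

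Hoxa5 read 1.91, 1.81, 1.90 and 1.71 at P14 in 21% O2 and 0.27, 0.04, 0.00 and 0.26 in 85% O2. The gap between the groups was far wider than the spread within either, and the difference of -1.69 ± 0.10 was 3.23-fold (adjusted p = 2.15e-08). Hoxb5 read 1.84, 1.79, 1.95 and 1.64 against 0.76, 0.62, 0.28 and 0.61, a difference of -1.24 ± 0.10 (adjusted p = 3.86e-07). In both genes the oxygen difference itself grew with age. The P14 difference minus the P5 difference was -1.18 ± 0.14 for Hoxa5 (adjusted p = 8.2e-07) and -0.85 ± 0.15 for Hoxb5 (adjusted p = 8.93e-05).

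Hoxa2 read 0.14, 0.12, 0.23 and -0.22 in 21% O2 at P14 and -1.22, -1.15, -1.18 and -1.09 in 85% O2. All 4 hyperoxic mice lay close together and well below the others, with a difference of -1.23 ± 0.10 (adjusted p = 4.45e-07). Both Hoxb3 probes were lower, by -1.13 ± 0.08 and -1.07 ± 0.09. Hoxa3 (-0.65 ± 0.08), Hoxb4 (-0.65 ± 0.09), Hoxb2 (-0.59 ± 0.11) and Hoxb6 (-0.36 ± 0.12) followed, while Hoxa4 (-0.18) and Hoxa7 (-0.28) were not called. The Hoxb6 call was lost without replicate 2 of the 21% O2 mice or replicate 3 of the 85% O2 mice.

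The 2 probes of Hoxa9, a posterior gene, gave different readings at P14. The brighter probe differed by -0.09 in SCR mice, which was not called, and the second by -0.75 ± 0.18 (adjusted p = 0.00217), a value that became 0.091 and was not called with normexp, another way of removing background. In A34a mice the brighter probe differed by -0.53 (adjusted p = 0.0122), and the second was above background on no array in 85% O2 and at least 2.04-fold lower there, a call lost with normexp (-0.13, adjusted p = 0.485). The sign of the brighter probe's difference turned with quantile normalization (0.31) and with normexp (0.0077). The second probe entered the P14 test only through the 21% O2 groups, which favours lower calls in 85% O2.

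Hoxa6, which lies next to Hoxa5 in the cluster, moved the other way. It read -4.94, -4.48, -4.92 and -4.01 at P14 in 21% O2 and -3.62, -3.23, -3.34 and -2.50 in 85% O2, a difference of 1.42 ± 0.30, or 2.67-fold higher (adjusted p = 0.00116). The groups did not overlap and the probe was above background on all 32 arrays. Hoxb7 read -0.46, -0.45, -0.48 and -0.58 in 21% O2 and 0.00, -0.15, -0.42 and 0.07 in 85% O2. It was higher by only 0.36 ± 0.13 (adjusted p = 0.03), and the call was lost without replicate 4 of the 21% O2 mice, or without replicate 1 or 4 of the 85% O2 mice. Hoxb8, which lies next to Hoxb7, varied so widely within groups (-2.05, -4.12, -1.34 and -3.48 in 21% O2) that its difference of -0.58 could not be separated from 0.

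**Figure D3:**
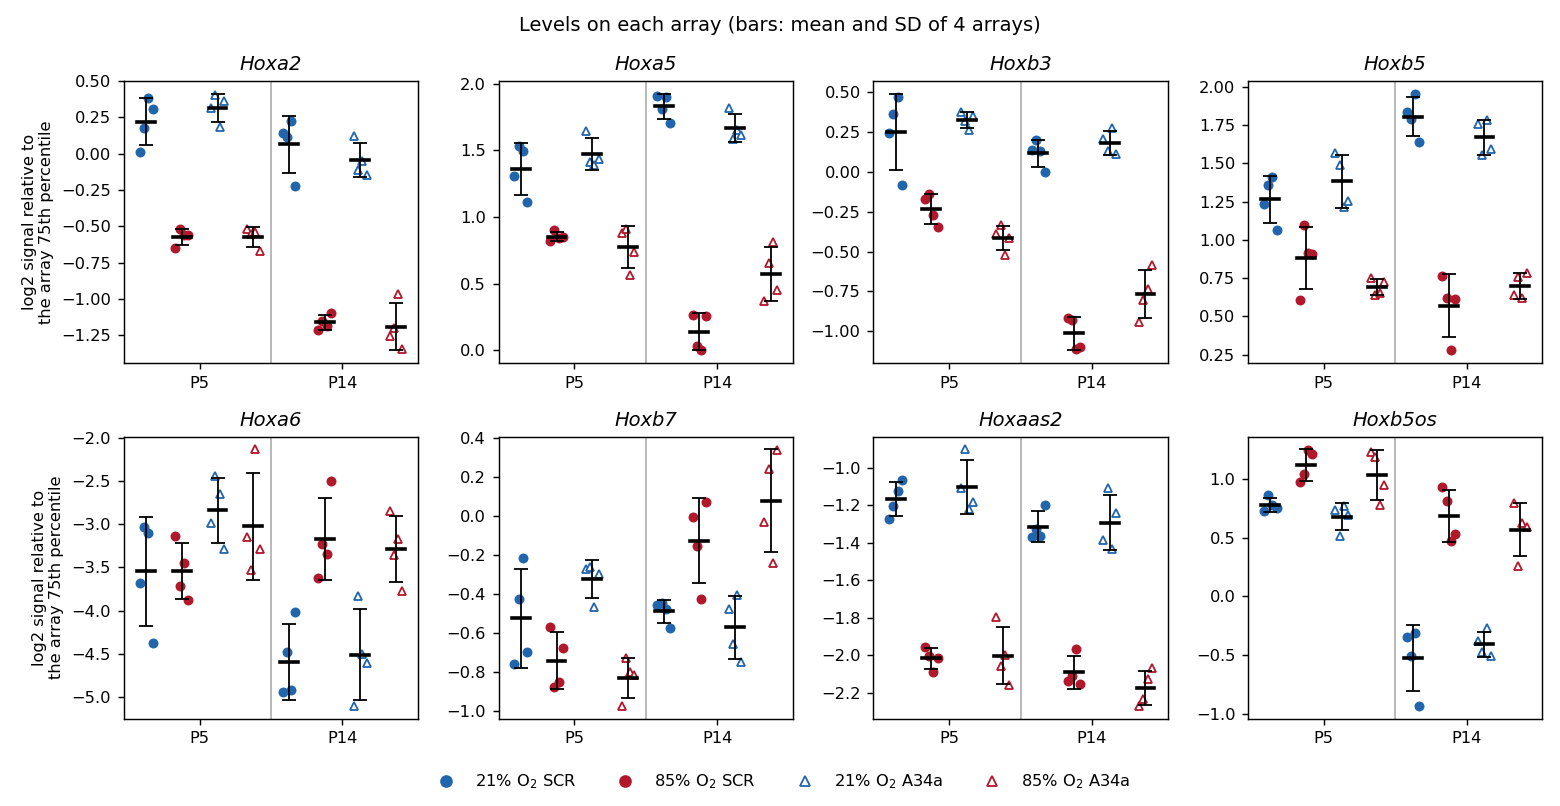
Level on each array (points; log2 intensity minus the array's 75th percentile) with the group mean and SD (bars) in the 8 groups, for Hoxa2, Hoxa5, Hoxb3, Hoxb5, Hoxa6, Hoxb7 and the antisense or opposite-strand transcripts Hoxaas2 and Hoxb5os. Hoxa5 falls from 1.71 to 1.91 in P14 SCR mice in 21% O2 to 0.00 to 0.27 in 85% O2, and Hoxa6 and Hoxb5os rise.

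The A34a mice, which share no animal with the SCR mice, were compared between oxygen levels in the same way. At P5, 14 of 21 Hox probes were called lower and none higher, where 46% of all probes were called and 26.3% were called lower. At P14, 17 of 24 were called lower and 2 higher, where 65.1% of all probes were called and 35.9% were called lower. Over probes seen on every array of an age, 13 of 18 Hox probes were lower at P5 (25.9% of all such probes) and 10 of 16 at P14 (29.6%). The A34a and SCR arrays of an oxygen level lay on the same slide, so the pair of comparisons are not free of a common slide effect.

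Hoxa5 in A34a mice was lower by -0.70 at P5 and by -1.10 ± 0.10 at P14 (2.14-fold, adjusted p = 9.83e-07). At P14 it read 1.82, 1.59, 1.65 and 1.62 in 21% O2 and 0.37, 0.66, 0.81 and 0.45 in 85% O2, without overlap. Hoxa2 was lower by -0.89 and -1.15 at the 2 ages and Hoxb5 by -0.69 and -0.97. Hoxa6 was again higher at P14, by 1.22 ± 0.30 (adjusted p = 0.00289). Hoxb7 was lower at P5, by -0.51 (adjusted p = 0.00216), and higher at P14, by 0.65 ± 0.13 (adjusted p = 0.000704). In this gene the sign of the oxygen difference turned between the ages, and in SCR mice, where the P5 value of -0.22 was not called, the difference between the ages was 0.58 ± 0.18 (adjusted p = 0.0107).

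Some genes were called in only 1 of the treatments, which does not show that the treatments differ. Hoxb6 was lower by -0.64 at P5 in A34a mice and by -0.05 at P14, where it was not called, and Hoxd8 (-0.02) and Hoxd9 (0.24) were not called at P5 in A34a mice. Hoxb4 (-0.26) and Hoxb2 (-0.31) at P14 in A34a mice were called on overlapping groups. Each was lost when replicate 3 of the 21% O2 A34a mice or replicate 1 or 3 of the 85% O2 A34a mice was left out, and Hoxb4 also without replicate 2 of either. Hoxa4 at P5 (-0.24) was lost without replicate 4 of the 21% O2 or replicate 2 of the 85% O2 A34a mice.

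A set of posterior and Hoxc probes was above background chiefly on the slide with the P14 mice kept in 21% O2. Hoxb9 read -3.84, -4.16, -4.62 and -1.44 there in SCR mice and -4.38, -1.16, -1.64 and -1.37 in A34a mice, and was above background on 0 arrays of every other group. Hoxd11, a limb and kidney patterning gene, read -4.26, -4.35, -5.24 and -2.22 in SCR mice and -4.87, -2.14, -2.38 and -2.07 in A34a mice, and was likewise dim everywhere else. Within that slide the higher readings fell on the same 4 arrays, SCR replicate 4 and A34a replicates 2, 3 and 4. Their 75th percentiles were 9.17, 9.44, 9.45 and 9.39 (log2 intensity), against 9.91 to 9.99 on the 4 arrays with lower readings. Hoxc13 followed the same split, at -4.50, -4.66, -5.11 and -2.23 in SCR mice and -4.25, -2.16, -2.37 and -2.18 in A34a mice.

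**Figure D4:**
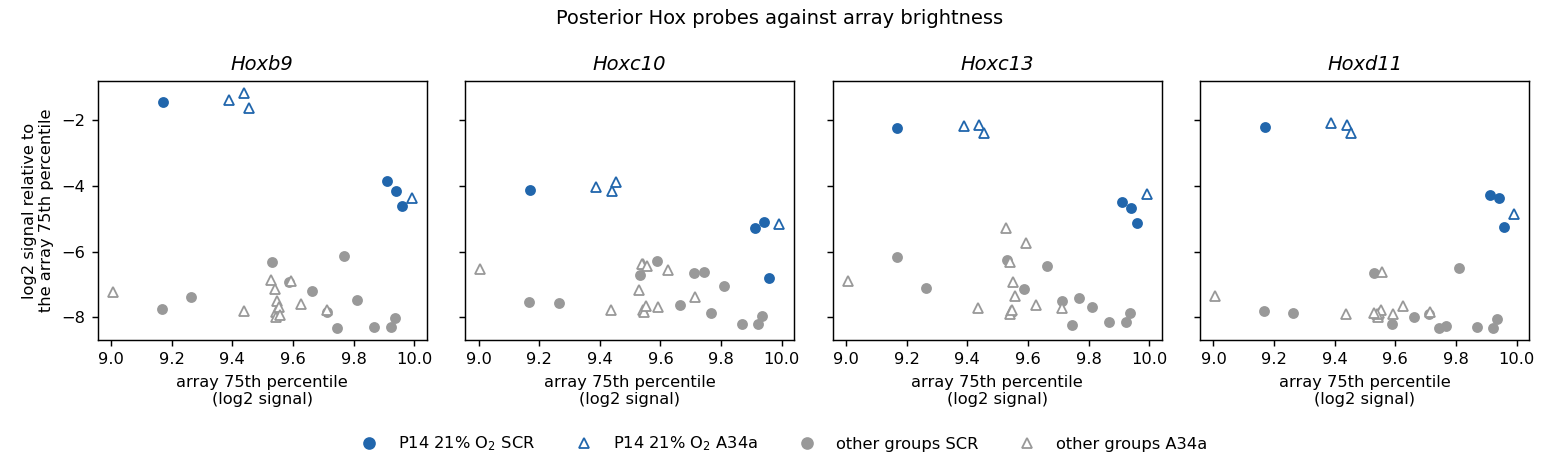
Level of Hoxb9, Hoxc10, Hoxc13 and Hoxd11 on each array against that array's 75th percentile of log2 intensity, with the P14 21% O2 arrays marked apart from the other groups. The 4 arrays of that slide with a 75th percentile of 9.17 to 9.45 carry the highest Hoxb9, Hoxc13 and Hoxd11 levels, and the arrays of the other groups lie below.

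For probes not well above background in 85% O2 the difference has only a bound, set by the dimmest signal well above background on each array. Hoxb9, Hoxd11, Hoxc5, Hoxc10 and Hoxc13 entered the P14 test only through the 21% O2 groups, where they read high. The filter thus favoured lower calls for them in 85% O2, in every fit given here. At P14 in SCR mice, levels in 85% O2 were at least 4.74-fold lower for Hoxb9, at least 3.35-fold lower for Hoxd11, 1.45-fold for Hoxc5 and 1.35-fold for Hoxc10. In A34a mice the bounds were 12.1-fold for Hoxb9, 7.32-fold for Hoxd11, 2.70-fold for Hoxc10 and 2.14-fold for Hoxc5. The SCR calls depended on how background was removed. With normexp correction of the raw signals the SCR differences were -0.73 for Hoxb9, -0.57 for Hoxd11 and -0.31 for Hoxc13, none of them called, and Hoxc5 (0.11) and Hoxc10 (0.081) changed sign. In A34a mice Hoxb9 (-1.69), Hoxd11 (-1.33) and Hoxc13 (-1.04) stayed called with normexp, and Hoxc5 and Hoxc10 did not. Leaving out the 4 dimmer arrays of that slide left 3 SCR mice and 1 A34a mouse in 21% O2, the last assumed to vary like the other groups. Hoxb9 and Hoxd11 were then still called in both treatments. Hoxc5 and Hoxc10 lost their call in A34a mice, and Hoxb7 in both treatments, at 0.33 in SCR and 0.56 in A34a mice. The part of the slide and of the array brightness in these readings was not tested.

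Hoxc4 and Hoxd4, paralogs of Hoxa4 and Hoxb4, were dim and variable. At P14 both were above background on all 4 arrays only in the 21% O2 groups. They entered the test through these groups, which favours lower calls in 85% O2. Hoxd4 read -3.86, -4.76, -3.76 and -3.90 at P14 in 21% O2 SCR mice and -5.48, -5.56, -6.44 and -6.06 in 85% O2, where 1 of 4 arrays was above background. The groups did not overlap and the difference was -1.81 ± 0.44 (adjusted p = 0.00282), but -0.21 and not called with normexp correction. Hoxc4 differed by -1.93 ± 0.55 at P14 (adjusted p = 0.00751), which was likewise lost with normexp (-0.30) and with quantile normalization (-1.42). In A34a mice Hoxd4 differed by -2.76 and was called, and Hoxc4 by -0.86 and was not.

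Several Hoxc readings were high on arrays that also carried markers of other tissues. On replicate 4 of the P5 21% O2 SCR mice, where the skeletal muscle list stood at 0.99, Hoxc4 read -2.04 (others -5.20 to -3.57), Hoxc6 read -3.49 and Hoxc5 was above background, at -4.61. Hoxc6 also read -3.77 and -3.32 on replicate 1 of the P14 21% O2 SCR and A34a mice, where the adipocyte list stood at 1.60 and 2.24. On replicate 4 of the P14 85% O2 A34a mice the adipocyte list stood at -2.54, the highest outside the 21% O2 slide, and Hoxc4 read -3.59, the highest of its group. Other arrays did not pair in this way. Replicate 1 of the P5 85% O2 A34a mice had Hoxc6 at -3.75 and the adipocyte list at -5.28. Replicate 1 of the P5 85% O2 SCR mice had the highest Hoxc4 of its group (-3.83), with the skeletal muscle list at -4.03 and the adipocyte list at -5.63. Hoxc6 was also above background, at -5.64, on replicate 2 of the P14 85% O2 A34a mice, where the adipocyte list stood at -5.64. The part of other tissues in the Hoxc levels was not tested.

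**Figure D5:**
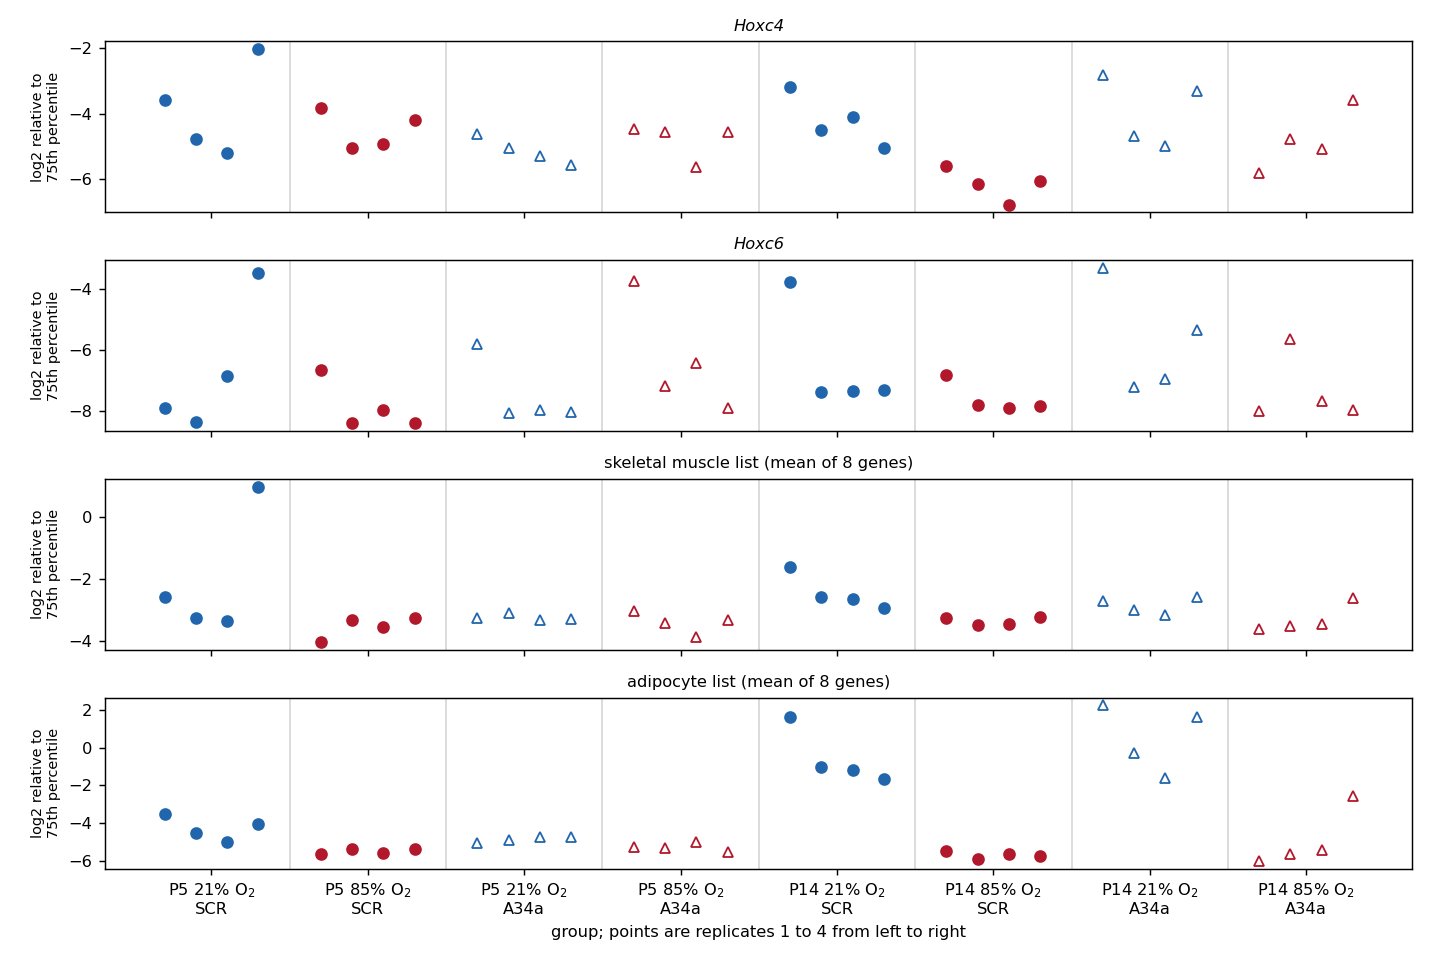
Levels of Hoxc4 and Hoxc6 and the mean levels of the skeletal muscle and adipocyte marker lists on each of the 32 arrays (log2 relative to the array's 75th percentile), by group. Replicate 4 of the P5 21% O2 SCR mice has the highest skeletal muscle level (0.99), and the P14 21% O2 arrays have the highest adipocyte levels (-1.68 to 2.24).

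The antimiR was compared with SCR within each oxygen level and age. At P5 in 21% O2, limma called 0 of 21 Hox probes (5 at an unadjusted p under 0.05, smallest adjusted p = 0.158), where 0.128% of all probes were called. At P5 in 85% O2 it called 0 of 21 (3 unadjusted, smallest adjusted p = 0.130), against 0.0917% of all probes. At P14 in 21% O2 it called 0 of 24 (1 unadjusted, smallest adjusted p = 0.459), against 0% of all probes. At P14 in 85% O2 it called 3 of 24 (8 unadjusted), 2 higher and 1 lower, where 2.49% of all probes were called. The methods' t-test called no Hox probe in any of the 4 comparisons, and in each it called 0 of all the probes tested.

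Hoxa5 was among the 3. At P14 in 85% O2 it read 0.37, 0.66, 0.81 and 0.45 in A34a mice and 0.27, 0.04, 0.00 and 0.26 in SCR mice, without overlap. The level was higher with A34a by 0.43 ± 0.10, 95% interval 0.21 to 0.65 (adjusted p = 0.0433). A test of whether the antimiR acted differently in 85% and in 21% O2 gave 0.59 ± 0.15 for Hoxa5, which was not called (adjusted p = 0.125). Hoxb4 read 2.18, 2.09, 2.20 and 2.48 with A34a and 1.93, 1.89, 1.81 and 1.81 with SCR, a difference of 0.38 ± 0.09 (adjusted p = 0.0467).

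Both calls lay close to the threshold. Hoxa5 lost its call without replicate 2, 3 or 4 of either group, and Hoxb4 without any single SCR replicate or without replicate 1, 3 or 4 of the A34a mice. The second Hoxa9 probe (A_55_P2066103, chromosome 6, 52175595 to 52175654) was lower with A34a, at -6.63, -6.61, -5.88 and -6.00 against -5.20, -4.95, -5.48 and -5.15 with SCR. It was above background on 3 of 4 SCR arrays and on no A34a array, so that the level was at least 1.46-fold lower (adjusted p = 0.00666). The brighter Hoxa9 probe differed by -0.51 (adjusted p = 0.137). All 3 calls were lost with normexp correction and when only the 8 arrays compared were fitted. At P5 in 85% O2 the second Hoxa9 probe was again above background on 4 SCR arrays and 0 A34a arrays, with a difference of -0.96 that was not called (adjusted p = 0.13). Hoxa7 at P5 in 21% O2 did not overlap either, at 0.54, 0.54, 0.46 and 0.77 with A34a and -0.12, 0.45, 0.29 and -0.48 with SCR, and was not called (0.55, adjusted p = 0.158).

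The antimiR difference by oxygen was called for 0 of 21 Hox probes at P5 (6 unadjusted, smallest adjusted p = 0.328; 0.0556% of all probes) and for 0 of 24 at P14 (3 unadjusted, smallest adjusted p = 0.125; 0.0702%). The P14 count became 1 without replicate 4 of the 21% O2 SCR mice, where the count over all probes went from 27 to 827.

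Age was compared within SCR mice, between slides scanned on different days. In 21% O2, 14 of 26 Hox probes were called (8 higher and 6 lower at P14), where 51.1% of all probes were called. Hoxa7 (0.92), Hoxb5 (0.54) and Hoxa5 (0.47) were higher at P14, together with the posterior Hoxb9, Hoxc10, Hoxc13 and Hoxd11 read chiefly on the P14 21% O2 slide. Hoxd9 (-1.39), Hoxd8 (-1.31), Hoxa6 (-1.04), Hoxa9 (-0.41), Hoxa3 (-0.34) and Hoxb2 (-0.29) were lower, the Hoxa6 groups with overlap. Hoxd9 entered the test only through the P5 21% O2 SCR mice and was above background on 1 of 4 arrays at P14 in 21% O2 SCR mice. With normexp correction Hoxa6 (-0.52), Hoxc10 and Hoxa9 were not called, and Hoxa9 also lost its call without any single P14 mouse or without replicate 1, 3 or 4 at P5. Hoxa7 read -0.12, 0.45, 0.29 and -0.48 at P5 and 0.78, 0.91, 0.94 and 1.20 at P14, so that every older mouse lay above every younger one.

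In 85% O2, 12 of 26 were called (2 higher and 10 lower at P14), where 41.7% of all probes were called. Hoxa5 turned direction. It was higher at P14 than at P5 in 21% O2 and lower by -0.71 in 85% O2, and Hoxb5 did the same, lower by -0.31. Hoxd4 (-1.45), Hoxc4 (-1.64), Hoxa3 (-0.67), Hoxa2 (-0.59), Hoxb2 (-0.52), Hoxb4 (-0.44) and both Hoxb3 probes (-0.27 and -0.78) were also lower, and Hoxa7 (0.52) and Hoxb7 (0.62) were higher. Hoxd4 and Hoxc4 were each above background on 1 of 4 arrays at P14 in 85% O2 SCR mice. With normexp correction Hoxd4, Hoxc4 and the first Hoxb3 probe were not called. Without replicate 3 at P14, Hoxb5, Hoxc4 and the first Hoxb3 probe lost their call. Without replicate 1 or 4 at P5 the last 2 did, and without replicate 2 at P5 Hoxb5 did.

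The oxygen difference in SCR mice differed between the ages for 13 of 26 Hox probes, against 40.1% of all probes. Hoxb9, Hoxc13 and Hoxd11 are among the 13 and were above background only in the P14 21% O2 group of the 4 compared, so that their values have no measured size. In 10 the P14 difference was the lower and in 3 (Hoxa6, Hoxb7 and the brighter Hoxa9 probe) the higher. Beside Hoxa5 and Hoxb5, Hoxb3 (-0.65 ± 0.13), Hoxa2 (-0.44 ± 0.13) and Hoxa6 (1.41 ± 0.47) were among them.

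Other transcripts of the clusters were read by 38 probes that carry no Hox gene symbol of the kind counted here. In SCR mice 2 of 21 tested were higher and 11 lower in 85% O2 at P5 (median difference -0.38), where 43.6% of all probes were called, and 2 of 23 higher and 10 lower at P14 (median -0.34), where 60.5% were. In A34a mice 15 were lower at P5, where 26.3% of all probes were called lower, and 17 at P14, where 35.9% were. At each age 2 were higher. For the antimiR, 0 of these cluster probes were called in any of the 4 comparisons. Several of the probes read the same transcript, so they are not separate transcripts. Some entered the P14 test only through the 21% O2 groups, which favours lower calls in 85% O2. Hoxb5os, an opposite-strand transcript of the Hoxb cluster, went up. Its probe lies on the minus strand between those of Hoxb7 and Hoxb6 (chromosome 11, 96152394 to 96152453). At P14 it read -0.35, -0.51, -0.32 and -0.93 in 21% O2 and 0.93, 0.81, 0.47 and 0.53 in 85% O2, a difference of 1.22 ± 0.15 (adjusted p = 1.24e-05), while Hoxb5 itself was lower by 1.24. In A34a mice the Hoxb5os difference was 0.98.

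Hoxaas2, an antisense transcript of the Hoxa cluster, was lower in SCR mice by -0.85 at P5 and -0.78 at P14. Its probe shares 40 bases with the Hoxa3 probe on the opposite strand. Haglr, the long noncoding RNA beside Hoxd1, was lower by -0.65 and -0.79, Gm11536 by -0.71 and -1.34, and AI448005 by -0.59 and -2.04.

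Partners and regulators of Hox proteins were read as lists, to be set against the 43.6% of all probes called at P5 and the 60.5% called at P14 in SCR mice. The counts are descriptions and were not tested against those shares. TALE class genes (Pbx, Meis and Pknox) bind DNA together with Hox proteins. At P5 in SCR mice 85% O2 gave a higher reading for 1 of 9 and a lower reading for 3, and at P14 for 4 and 3. Pbx4 was higher at both ages (0.68 and 1.12), and Meis1 was lower at P14 (-0.31). In P14 mice in 85% O2 Meis1 was higher with A34a than with SCR by 0.29 (adjusted p = 0.0306). Polycomb genes keep Hox clusters silent. Of 19 of them 7 were lower and 3 higher at P5, and at P14 6 and 2. The subunits Cbx8 (-0.94 and -1.69) and Cbx2 (-0.75 and -1.27), which bind methylated histone H3, and the methyltransferase Ezh2 (-0.72 and -0.37) were lower at both ages. Trithorax genes hold the clusters active. Of 12 of them 2 were lower at P5 and none higher, and 3 were lower and 5 higher at P14. The median differences were 0.02 and 0.20, against -0.03 and -0.05 over all probes. Men1 was among the lower genes at both ages (-0.32 and -0.43).

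Retinoic acid is a classical inducer of anterior Hox genes. Of 15 genes of its pathway, 4 were lower and 3 higher at P5, and at P14 5 and 4, shares near those of all probes called (43.6% and 60.5%). Aldh1a3, which makes retinoic acid, was higher by 1.97 and 3.38, and Cyp26b1, which degrades it, was lower by -1.89 and -2.08. Crabp1, a cytoplasmic retinoic acid binding protein, was lower by -0.67 at P5 and by -6.25 at P14. At P5 in 85% O2 Cyp26b1 was higher with A34a than with SCR by 1.58 (adjusted p = 0.0151).

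Markers of the lung mesenchyme, the main site of Hox gene use in this organ, moved in the same comparisons. Of 10 such genes 5 were lower and 2 higher in 85% O2 at P5, and 6 and 2 at P14, with median differences of -0.31 and -0.54. Over all probes the medians were -0.03 and -0.05, and 43.6% and 60.5% were called. Pdgfra (-1.22 and -2.44), Tbx4 (-0.44 and -0.79), Tbx5 (-0.35 and -0.90) and Fgf10 (-0.52 and -0.60) were lower at both ages, while Wnt2 was higher at P14 (1.76). Over SCR and A34a mice, the mean level of the list was 2.71 to 2.96 in 21% O2 and 2.51 to 2.64 in 85% O2 at P5. At P14 it was 2.70 to 2.79 against 2.24 to 2.42. All 10 genes were above background on every array. In whole lung, fewer cells of a type and less RNA per cell cannot be told apart, and the part of the mesenchyme in the Hox differences was not tested. Other lung markers did not all fall. In SCR mice 4 of 10 alveolar epithelial genes were higher and 1 lower at P5, and 4 and 3 at P14 (medians 0.10 and 0.14). Of 10 endothelial genes 3 were higher and 3 lower at P5, and 5 and 3 at P14 (medians -0.04 and 0.20). Markers of leukocytes and of tissues around the lung also differed, where 23.4% of all probes were called lower at P5 and 31.6% at P14. Of 10 leukocyte genes, 3 were higher and 1 lower at P5 in SCR mice (median 0.12), and 6 were lower and 2 higher at P14 (median -0.61). The mean level of the list in P14 SCR mice was 2.03 to 2.23 in 21% O2 and 1.62 to 1.76 in 85% O2. Of 8 heart muscle genes, 6 read lower in the hyperoxic SCR mice at P5 and 4 at P14. At P14 the same held for 6 of 8 thymus genes and for 7 of 7 adipocyte genes tested. In 21% O2 SCR mice 7 genes of each list were above background on all 4 arrays. In 85% O2 SCR mice 4 thymus and 3 adipocyte genes were. Genes that entered the test only through the 21% O2 groups were favoured for a lower call by the filter. Over SCR and A34a mice, the mean level of the heart muscle list at P5 was 0.81 to 2.99 in 21% O2 and -1.25 to 0.97 in 85% O2. That of the thymus list at P14 was -3.13 to -1.54 and -4.69 to -3.91. Their part in the Hox differences was not tested.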

How the data were processed

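Whole-lung RNA of 32 mice in 8 groups of 4 was read on one-colour Agilent 8x60K arrays. The authors deposited scanner files of Feature Extraction 10.7.3.1, with the processed intensity of each spot (background-subtracted, linear scale), and a log2 value table of the same arrays, which served as an alternative. Spots that the software marked as outliers (0.126 to 0.45% an array) were left out, repeat spots of a probe were averaged as log2 intensity, and the 75th percentile of each array was subtracted. No spot was saturated. Probes that were well above background throughout some group of 4 arrays entered limma 3.58.1 (R 4.3.3) with lmFit and eBayes and a mean for each group, at P5 (35981 probes), at P14 (38452) or over both ages (39159). The number of arrays limits the precision. Group and replicate number come from the labels. The replicates are separate mice, and within-group spread therefore includes differences between animals and between arrays. No pair of arrays was a duplicate.

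The Hox members, the gene lists and the tests were chosen with earlier results of these data known. The genes named are those the rule for members takes, with the probes of a gene kept apart, and members of the lists that were called. The fits were tested on simulated data made from these arrays. Other settings were background correction with normexp (offset 50), quantile normalization, no filter, a filter on every array, only the arrays compared, the methods' t-test, a replicate block, the deposited table, 1 probe a gene and leaving out each array. Chosen after seeing the data were leaving out the 4 dimmer arrays of the P14 21% O2 slide and the array's 75th percentile as a covariate. Sources differ on the RNA kit and on the anaesthetic at P14. Probe names are those of the array design. An item counted among the members is not reported here.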

Additional observations from a re-analysis of the deposited data

Results flagged for a closer look

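In 13 of 157 groups of 4 arrays examined for the Hox probes, 1 array stood far from the other 3 by Dixon's test, where chance gives about 1 in 20. In P14 21% O2 A34a mice, replicate 1 was the low array for Hoxb9 (-4.38, others -1.64 to -1.16), Hoxc13 (-4.25, others -2.37 to -2.16), Hoxd11 (-4.87, others -2.38 to -2.07) and Hoxa7 (0.76, others 1.22 to 1.28). In P14 21% O2 SCR mice, replicate 4 was low for Hoxa4 (-1.91, others -1.66 to -1.64), Hoxb4 (2.32, others 2.55 to 2.59) and the brighter Hoxa9 probe (-4.69, others -4.40 to -4.35), and replicate 2 for Hoxd4 (-4.76, others -3.90 to -3.76). The remaining arrays were spread over groups. Hoxd8 was high in P5 21% O2 SCR replicate 4 (-3.13, others -4.37 to -4.19) and Hoxa5 in P5 21% O2 A34a replicate 1 (1.65, others 1.39 to 1.43). Hoxa4 was low in P5 85% O2 SCR replicate 3 (-2.12, others -1.92 to -1.90) and high in P14 85% O2 A34a replicate 1 (-1.59, others -1.90 to -1.88), and Hoxb6 was low in P14 85% O2 SCR replicate 3 (0.12, others 0.46 to 0.48).

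The oxygen difference in SCR mice differed between P5 and P14 for 13 Hox probes, by the interaction term of limma. Among them, the P14 minus P5 difference was -1.18 ± 0.14 for Hoxa5, -0.85 ± 0.15 for Hoxb5, -0.65 ± 0.13 for Hoxb3 (A_52_P312467), -0.44 ± 0.13 for Hoxa2, -0.33 ± 0.12 for Hoxa3 (adjusted p = 0.0298) and -0.32 ± 0.10 for Hoxb4 (adjusted p = 0.0158). It was 1.41 ± 0.47 for Hoxa6 (adjusted p = 0.0173), 0.58 ± 0.18 for Hoxb7 and 0.66 ± 0.24 for the brighter Hoxa9 probe (adjusted p = 0.0313). For Hoxb9, Hoxd11 and Hoxc13 the fitted values were -4.46, -3.75 and -2.92. These probes were above background on no array of the other 3 groups compared and entered the test through the P14 21% O2 group, so these values are not measured sizes. Slide cannot be told apart from age and oxygen in these values.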

How the results depend on the processing

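Of the recomputed counts of called Hox probes, 122 stayed within 1.5 times the value reported. The others were, for oxygen in SCR mice, 7 at P5 by the methods' t-test (14 reported) and 12 at P14 both with normexp and with probes seen on every array (20 reported). For oxygen in A34a mice at P14 the count was 12 with probes seen on every array (19 reported), and for age in 21% O2 it was 8 (14 reported). For A34a against SCR in 85% O2 the count at P5 was 5 with no filter (0 reported). At P14 it was 0 with normexp, with only the arrays compared and by the methods' t-test, and 1 with no filter and with the replicate block (3 reported). Leaving out each array in turn gave 11 to 14 (P5) and 19 to 20 (P14) for oxygen in SCR mice, 13 to 14 and 17 to 20 in A34a mice, 13 to 15 for age in 21% O2, 9 to 12 in 85% O2, and 11 to 15 for oxygen by age. For A34a against SCR it gave 0 to 0 in the P5 comparisons and in 21% O2 at P14, and 1 to 2 in 85% O2 at P14. It gave 0 to 0 for the antimiR by oxygen at P5 and 0 to 1 at P14. Without the 4 dimmer arrays the P14 counts were 19 (SCR) and 13 (A34a), the latter with 1 A34a mouse left in 21% O2, assumed to vary like the other groups. With the array's 75th percentile as a covariate the oxygen counts were 15 and 20 (SCR) and 14 and 20 (A34a).

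Of 109 differences of single probes, 66 kept their call under every setting, 43 lost it under at least 1, and 5 changed sign. The sign changed with normexp for Hoxc10 (0.081), Hoxc5 (0.11) and the second Hoxa9 probe (0.091) for oxygen in SCR mice at P14, for the brighter Hoxa9 probe for oxygen in A34a mice at P14 (0.0077) and for the first Hoxb3 probe for age in 85% O2 (0.0015). The same Hoxa9 value was 0.31 with quantile normalization and 0.31 in the deposited table. The cause was not tested. Normexp moved the median of all probes for oxygen in SCR mice at P14 from -0.05 to 0.12.

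Over all probes, A34a against SCR called 4193 at P5 in 85% O2 with no filter (33 reported), 1497 at P14 in 21% O2 without SCR replicate 4 (0 reported), and at P14 in 85% O2 354 with normexp, 577 with quantile normalization, 473 with no filter, 5 with only the arrays compared, 0 by the methods' t-test and 641 with the block (958 reported). Probes called higher at P14 in 85% O2 were 11132 of 23264 in SCR mice, against 11469 of 18006 with normexp, and 11225 of 25047 in A34a mice, against 10403 of 18695 with normexp and 13467 of 24054 with quantile normalization. For age they were 11250 of 20017 in 21% O2 (9514 of 20483 with quantile normalization) and 9922 of 16338 in 85% O2 (12700 of 17625 with normexp, 7238 of 15115 with quantile normalization), and for oxygen by age 8433 of 15704 (8866 of 13448 with normexp).

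Same-numbered arrays showed little common deviation at P5 (r of -0.13 to 0.15), and r was -0.35 to 0.50 at P14. On the P14 21% O2 slide r was 0.42 and 0.50 for replicates 1 and 4, pairs alike in brightness. It was -0.06 and -0.35 for replicates 2 and 3, pairs unlike in it. The numbers were not taken to pair the mice, but a pairing is not excluded, since brightness also differed between these arrays. With the replicate block, the counts were 13 and 20 for oxygen in SCR mice and 14 and 19 in A34a mice. Slide as a block was not run, since each slide holds 1 age and 1 oxygen level. Signal over background limits the Hoxc, Hoxd and posterior probes most.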
